A study of Mus musculus with 12 samples.

Results

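The response of adipose tissue macrophages (ATMs) to a high-fat diet (HFD) was examined in mice that lack the microRNA miR-146a. The comparison set the 3 miR-146a-/- HFD libraries against the 3 miR-146a-/- normal chow diet (NCD) libraries, 6 of the 12 libraries in the series, and was chosen by genotype and diet label across all genes. The other 6 libraries came from wild-type (WT) mice, 3 on HFD and 3 on NCD, and served to set the diet response without miR-146a beside the response with it. All mice were on a C57BL/6 background, entered the diets at 6 weeks of age, stayed on them for 14 weeks and were 20 weeks old at harvest. The miR-146a-/- mice carried a germline deletion, so the gene was missing in every tissue and not only in macrophages. HFD and NCD were feeds from different makers, so that fat content and other ingredients differed together and cannot be told apart. Each library pooled cells from 3 mice (9 mice per group), sorted from the stromal vascular fraction of visceral fat as CD45+ CD11b+ F4/80+. Replicates are therefore pools, and the p-values below measure the spread between pools. The miR-146a gene itself was not analysed here, so the genotype label was not checked by its own transcript.

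Macrophages in fat take up lipid from dying adipocytes, and in obesity a lipid-associated state appears, marked by lysosomal, lipid-handling and phagocytic genes, next to the tissue-resident macrophages that carry scavenger receptors. miR-146a is induced by NF-κB in myeloid cells and represses the adaptor proteins IRAK1 and TRAF6, which carry signals of Toll-like and interleukin-1 receptors back to NF-κB. A microRNA finds its targets mainly through its seed, bases 2 to 8 from the 5′ end. The mature sequence that the deletion removes is shown with that of its close relative miR-146b, encoded on another chromosome, because both read the same seed. Both come from RefSeq on the mouse build GRCm38.p6, at chr11:43374435-43374456 on the minus strand for miR-146a-5p and at chr19:46342790-46342811 on the plus strand for miR-146b-5p, and capitals mark the seed.
mmu-miR-146a-5p: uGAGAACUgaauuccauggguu
mmu-miR-146b-5p: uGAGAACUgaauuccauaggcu

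Library totals lay between 9998868 and 11559282 reads. Levels are in FPKM, fragment counts scaled to gene length and library depth. The gate genes were present in all miR-146a-/- libraries. Adgre1, which encodes F4/80, had 334, 566 and 539 FPKM in the miR-146a-/- HFD libraries and 445, 504 and 454 FPKM in the miR-146a-/- NCD libraries. The summed level of 12 macrophage markers was 5978 to 8054 FPKM on HFD and 6730 to 7947 FPKM on NCD, so both diets overlapped. Markers of other cells were present too, and no listed marker gene of any cell type was at 0 in every miR-146a-/- library. Among these, miR-146a-/- HFD replicate 1 stood apart from the other 11 libraries. Its 16 neutrophil markers summed to 20302 FPKM, against 678 and 633 FPKM in miR-146a-/- HFD replicates 2 and 3, 755 to 1855 FPKM in the miR-146a-/- NCD libraries and 156 to 280 FPKM in the WT libraries. Its 10 monocyte markers, 1 of which is shared with the neutrophil list, summed to 4567 FPKM, against 1591 and 1525 FPKM in the other HFD replicates. Much of that sum was Chil3, at 2730 FPKM against 26.2 and 18.8 FPKM. Ccr2 was lower in replicate 1, at 153 against 251 and 237 FPKM, as was F13a1, at 710 against 1207 and 1177 FPKM. The other monocyte markers were higher in that library. Erythroid markers were also highest there, at 263 FPKM against 45.3 and 69.1 FPKM. The epithelial list, which holds the neutrophil granule gene Lcn2, read 188 FPKM in that library and 4.25 and 3.81 FPKM in the other HFD replicates. The tests over all genes were therefore made with all libraries and again without HFD replicate 1. Not every value below is given for both, and a value with no fit named is from all libraries. In bulk RNA of this kind, fewer cells of a type and less RNA per cell cannot be told apart.

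**Figure D1:**
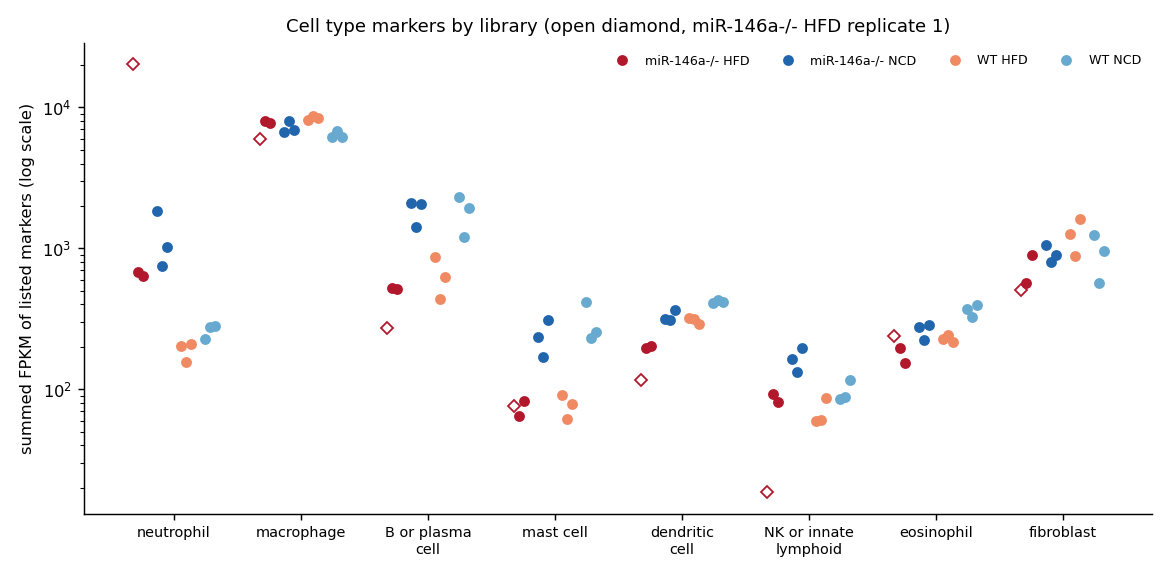
Summed FPKM of the listed markers of 8 cell types (log axis) in each library, in the order miR-146a-/- HFD, miR-146a-/- NCD, WT HFD and WT NCD, with 1 point per library and an open diamond for miR-146a-/- HFD replicate 1. Neutrophil markers reach 20302 FPKM in that replicate and 633 to 1855 FPKM in the other 5 miR-146a-/- libraries, while mast cell and B and plasma cell sums are lower in all 3 HFD libraries than in all 3 NCD libraries of that genotype.

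In miR-146a-/- ATMs the genes that changed with diet were mostly lower on HFD. Of 12119 genes that averaged 1 FPKM or more over the 12 libraries, 92 (0.759% of those tested) passed an adjusted p of 0.05 in limma, 12 higher (0.099%) and 80 lower (0.66%) on HFD, and 1626 had an unadjusted p under 0.05. Fold changes are on the log2(FPKM + 1) scale, as HFD minus NCD, which understates the change of low genes. The median over all tested genes was -0.03. It was 0.02 when libraries were scaled by their median ratio and 0.03 after quantile normalization, so its sign depended on scaling. Without such scaling, 42.6% of the tested genes lay above 0, against 41.4% without HFD replicate 1 and 51.0% in WT ATMs. List counts below are to be read against these shares. The lower genes included products of mast cells, immunoglobulin genes, dendritic cell genes and interleukin 5, and the higher genes included Gdf3, a TGF-β family ligand of fat tissue macrophages, and Rgs1, a brake on G protein signalling.

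Without HFD replicate 1, 198 genes (1.63%) passed, 50 higher (0.413%) and 148 lower (1.22%), with 1822 at an unadjusted p under 0.05. Both calls shared 76 genes, which is 82.6% of the genes called with all libraries and 38.4% of those called without replicate 1. All 92 genes kept their direction without that library. Of the 198 genes, 6 had the other direction when it was included, and in 50 of them replicate 1 lay beyond every NCD library on the side away from HFD replicates 2 and 3. The count of 92 also depended on other libraries: it was 23 without NCD replicate 1, 57 without NCD replicate 2 and 17 without NCD replicate 3, and 54 to 61 without WT HFD replicate 1 or 2 or WT NCD replicate 2 or 3, since all 12 libraries shared the estimate of spread. A fit on the 6 miR-146a-/- libraries alone called 2 genes, none of them among the 92. The 198 fell to 67 without HFD replicate 2, 36 without HFD replicate 3, 68 without NCD replicate 1 and 39 without NCD replicate 3, and were 121, 129 and 124 without WT HFD replicate 1, WT NCD replicate 2 and WT NCD replicate 3. With only the 5 remaining miR-146a-/- libraries 49 genes were called. Scaling each library by its median ratio gave 15 higher and 61 lower genes with all libraries, and 79 higher and 108 lower without replicate 1.

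Among the 92, 16 genes were called in each of 12 fits that left out 1 library at a time. They were Ighv11-2, Cma1, Tpsb2, Il5, H2-Oa, Btla, Gcsam, A530099J19Rik, Dpp4, Xcr1, Igfbp5, Clec9a, Flt3, Skint3, Aspa and Gdf3. The libraries of both diets did not overlap for any of the 92, a pattern seen in 17.5% of all tested genes, and in 33.8% without replicate 1.

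**Figure D2:**
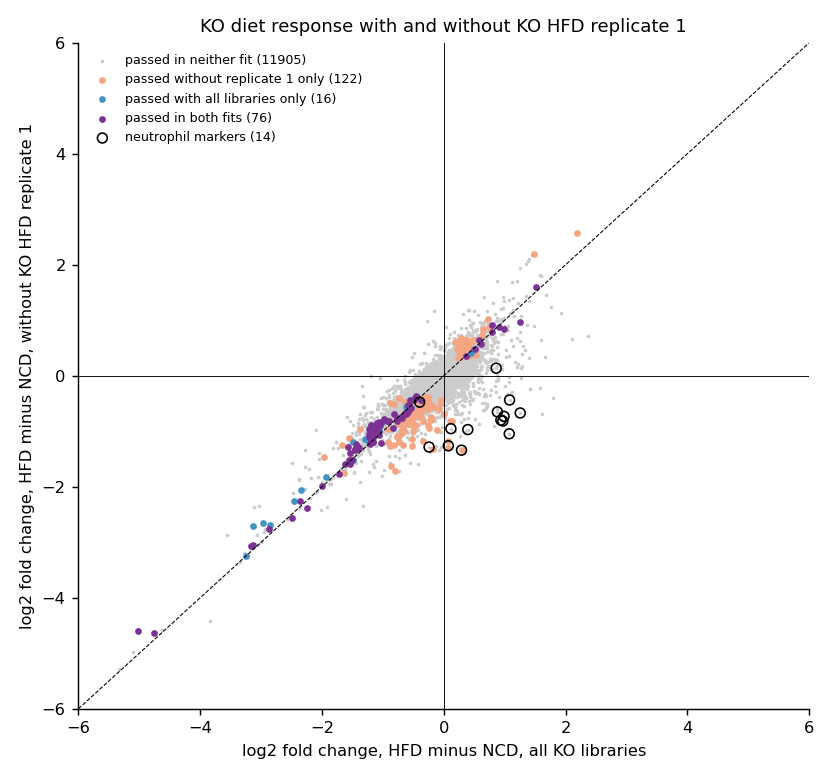
Log2 fold change, HFD minus NCD in miR-146a-/- (KO) ATMs, without HFD replicate 1 (vertical axis) against that with all libraries (horizontal axis), 1 point per gene and circles around the 14 tested neutrophil markers. The 76 genes passing in both fits lie near the dashed line of equal values, and most of the circled genes lie well below it.

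Gdf3 had 11.4, 13.8 and 13.9 FPKM in the miR-146a-/- HFD libraries and 5.34, 3.82 and 2.85 FPKM in the miR-146a-/- NCD libraries. All HFD values exceeded all NCD values, and the gene rose by 1.51 ± 0.18 on the log2 scale (SE, n = 3 each, limma adjusted p = 0.00577), and by 1.60 without replicate 1. Rgs1 had 400, 222 and 224 FPKM on HFD and 127, 102 and 113 FPKM on NCD. It rose by 1.25 (adjusted p = 0.0279), with HFD replicate 1 the highest, and by 0.97 (adjusted p = 0.00789) without it. Aspa, an aspartoacylase that frees acetate, had 8.49, 7.22 and 9.21 FPKM on HFD and 3.83, 3.62 and 4.46 FPKM on NCD. Its log2 fold change of 0.90 (adjusted p = 0.00761) was nearly the same without replicate 1, at 0.89.

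Axl, a receptor tyrosine kinase for the uptake of apoptotic cells, had 94.5, 82.1 and 89.6 FPKM in the miR-146a-/- HFD libraries against 59.6, 57.1 and 55.6 FPKM in the miR-146a-/- NCD libraries. The groups stood well apart, with a log2 fold change of 0.62 (adjusted p = 0.0225). Nceh1, a neutral cholesterol ester hydrolase, rose by 0.57 with 21.3, 25.3 and 24.5 FPKM on HFD against 17.3, 14.0 and 15.8 FPKM on NCD. C5ar1, the receptor for the complement fragment C5a, rose by 0.51, and Ccrn4l, a rhythmic RNA-binding enzyme also called nocturnin, rose by 0.78 with 5.28 to 5.59 FPKM on HFD and 2.61 to 2.90 FPKM on NCD. Smaller changes passed for genes of several roles. Ano6, a phospholipid scramblase, rose by 0.37, Fnip2, a folliculin partner in nutrient sensing, by 0.49, and Trib1, a pseudokinase that shapes macrophage identity, by 0.45. Fnip2 and Trib1 missed the threshold without replicate 1 (adjusted p = 0.0521 and 0.0598). Cxcl2, a neutrophil-attracting chemokine, had 738, 812 and 1119 FPKM on HFD and 530, 507 and 480 FPKM on NCD, a log2 fold change of 0.79 at an adjusted p of 0.0495, or 0.0163 without replicate 1.

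Genes of the lipid-associated state stood mostly above 0. Of 32 tested members of that list, 28 had a log2 fold change above 0, with a median of 0.32 against -0.03 for all genes, and none passed the limma test with all libraries (Lipa passed under median-ratio scaling). Without replicate 1 the median was 0.34 against -0.04, and 4 members rose, Gpnmb, Atp6v0d2, Lipa and Cd63. Gpnmb, a membrane glycoprotein of lipid-laden macrophages, had 6.62, 22 and 11.8 FPKM in the miR-146a-/- HFD libraries and 4.09, 1.03 and 1.33 FPKM in the miR-146a-/- NCD libraries. HFD replicate 1 was the lowest of its group and NCD replicate 1 the highest of the other. The log2 fold change was 2.18 (adjusted p = 0.0722) with all libraries and 2.57 (adjusted p = 0.0402) without replicate 1. Atp6v0d2, a subunit of the proton pump that acidifies lysosomes, had 2.36, 16.6 and 11.5 FPKM on HFD and 2.75, 2.59 and 1.5 FPKM on NCD, so that replicate 1 alone sat at NCD levels. The fold change was 2.20 (adjusted p = 0.00352) without replicate 1 and 1.49 (adjusted p = 0.236) with it. Lipa, the lysosomal acid lipase, read 207, 208 and 209 FPKM on HFD against 168, 165 and 153 FPKM on NCD, a log2 fold change of 0.36 in both fits. Trem2, the lipid receptor for which this state is best known, had 12.7, 17.0 and 13.3 FPKM on HFD and 9.53, 9.04 and 9.71 FPKM on NCD, which did not overlap but missed the threshold (log2 fold change 0.55, adjusted p = 0.219).

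Lysosomal genes had the same lean at a smaller size. Of 47 members 39 were above 0 with a median of 0.19, and none was called with all libraries apart from Lipa under median-ratio scaling. Without replicate 1, 41 were above 0 with a median of 0.18, and 2 were called higher. LXR targets had 10 of 15 members above 0 (median 0.13) with all libraries and 8 (median 0.04) without replicate 1. Fatty acid oxidation genes had 19 of 24 above 0 (median 0.10) and 14 (median 0.05) without it. Neither list held a called gene in limma, in either fit.

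**Figure D3:**
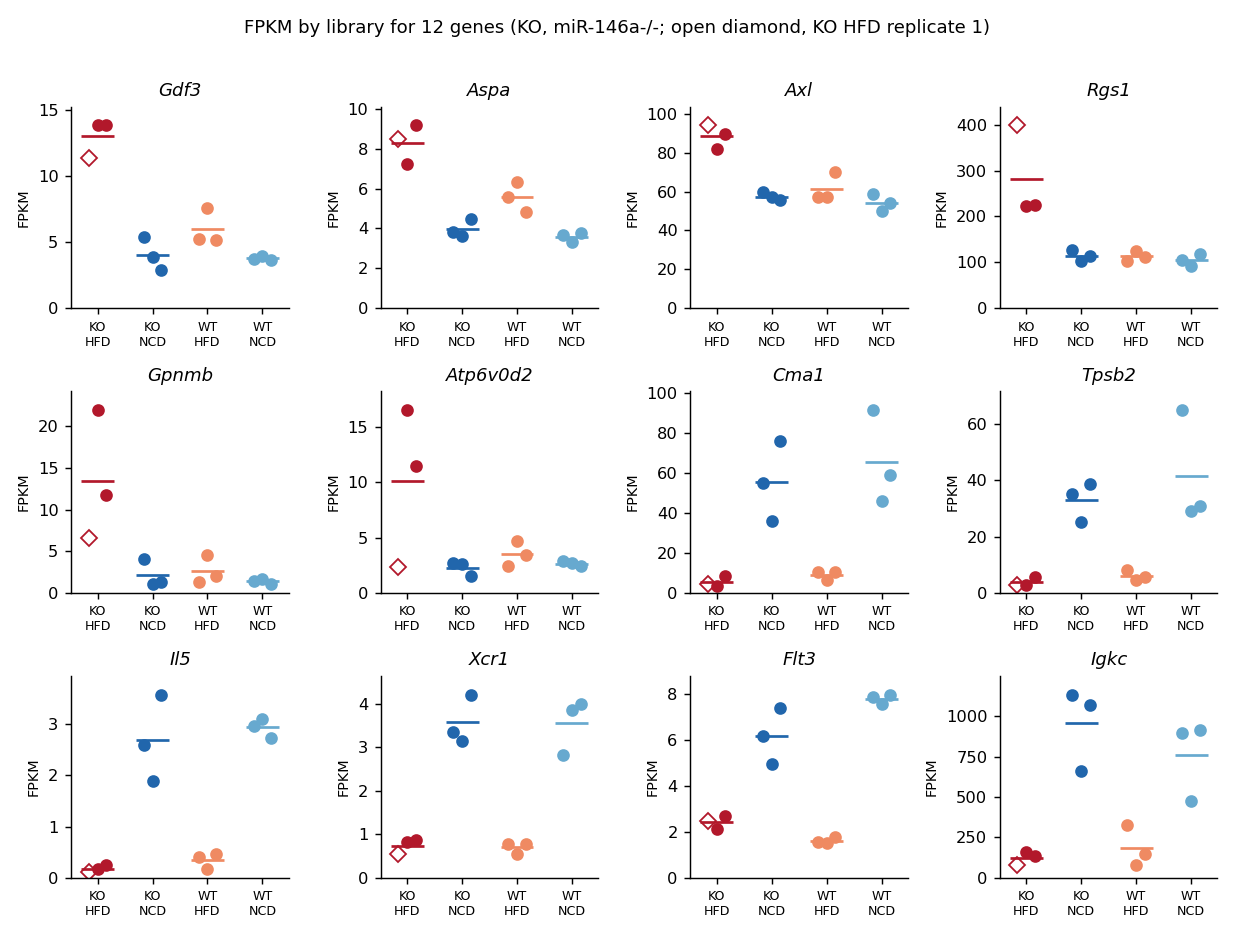
FPKM (linear axes from 0) of 12 genes in each library, miR-146a-/- (KO) HFD and NCD to the left of WT HFD and NCD, with 1 point per library, bars at the group means and an open diamond for KO HFD replicate 1. Without miR-146a, Gdf3, Aspa, Axl and Rgs1 are higher in every HFD library, Atp6v0d2 is higher in HFD replicates 2 and 3 but not in replicate 1, and Cma1, Tpsb2, Il5, Xcr1, Flt3 and Igkc are lower in every HFD library.

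Mast cell transcripts had the lowest median of the lists. Of 9 tested members of the mast cell list, 6 fell with a list median of -2.07 against -0.03 over all genes, and 6 fell without replicate 1 (median -1.83). The 6 differed by 1 gene: without replicate 1, Cpa3 missed the threshold and Hdc, the histamine-making enzyme of mast cells that neutrophils also express, passed it at -1.30, against 0.07 with all libraries. Cma1, a mast cell chymase, had 4.32, 3.38 and 8.42 FPKM in the miR-146a-/- HFD libraries and 54.8, 35.8 and 76.2 FPKM in the miR-146a-/- NCD libraries. No HFD library came near the NCD range, and the log2 fold change was -3.17 ± 0.37 (SE, adjusted p = 0.00717). Mcpt4, another chymase, had a log2 fold change of -3.13, and Tpsb2, a tryptase, of -2.88. Kit, the stem cell factor receptor that mast cells need, had 0.520, 0.579 and 0.297 FPKM on HFD against 2.45, 1.86 and 2.51 FPKM on NCD, a log2 fold change of -1.16. The calls held less firmly on the reads recovered from FPKM with limma voom, which passed 4 of the 9 members lower with all libraries and, without replicate 1, 1 member lower and 1 higher, Hpgds, a prostaglandin D synthase also found in macrophages. Mcpt4, Cma1 and the tryptases belong to families of similar genes whose reads can be hard to assign, so single members are uncertain.

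Cpa3, the mast cell carboxypeptidase, had 3.99, 2.80 and 12.2 FPKM on HFD and 46.2, 30.3 and 63.4 FPKM on NCD. HFD replicate 3 was the highest of its group and still below every NCD library. The log2 fold change of -2.86 (adjusted p = 0.0349) became -2.69 (adjusted p = 0.0733) without replicate 1. The Cpa3 promoter is shown as an example of a mast cell gene, from 250 bases before to 50 after its start on the minus strand of GRCm38.p6, chr3:20242132-20242431, as RefSeq gives it. Capitals mark AGATAA, a word bound by GATA factors, searched on both strands. It lies 46 to 41 bases before the start. The word occurs in 11.2% of 32851 mouse promoters of this length or, counted by gene, in 12.7% of 27025 genes, and in 2 of 7 tested mast cell genes with a promoter in the table, and a match is a description of letters only.
Cpa3: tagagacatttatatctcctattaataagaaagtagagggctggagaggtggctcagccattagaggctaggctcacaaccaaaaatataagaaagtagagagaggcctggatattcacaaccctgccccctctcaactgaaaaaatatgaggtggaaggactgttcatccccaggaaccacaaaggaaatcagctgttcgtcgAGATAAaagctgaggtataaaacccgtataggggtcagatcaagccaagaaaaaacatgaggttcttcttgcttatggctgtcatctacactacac

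Immunoglobulin and B cell genes formed the next group. Igkc, the kappa light chain constant region, had 77.6, 159 and 134 FPKM in the miR-146a-/- HFD libraries and 1133, 659 and 1071 FPKM in the miR-146a-/- NCD libraries. The ranges were far apart, with a log2 fold change of -2.96 (adjusted p = 0.0326), and -2.66 (adjusted p = 0.0698) without replicate 1. Igj, the joining chain of secreted IgM and IgA, had a log2 fold change of -3.14 with all libraries, and Ighm, the IgM heavy chain, of -1.48. Neither passed without replicate 1 (adjusted p = 0.0556 and 0.0598). Ighv11-2, a heavy chain variable segment, was read at 0, 0.735 and 0 FPKM on HFD and at 25.6, 19.1 and 64.2 FPKM on NCD. It fell by 4.76 on the log2(FPKM + 1) scale, the largest change among the 16 genes that stayed called in every fit with 1 library left out. Of 8 tested members of the B and plasma cell list 3 fell (median -1.38) and none passed without replicate 1 (median -1.09), while 2 passed as lower in WT ATMs. Variable segments resemble each other, and reads assigned to a single segment are uncertain.

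Several dendritic cell genes were lower. Xcr1, the chemokine receptor that defines conventional type 1 dendritic cells, had 0.541, 0.816 and 0.864 FPKM in the miR-146a-/- HFD libraries and 3.35, 3.15 and 4.22 FPKM in the miR-146a-/- NCD libraries. All HFD values lay below all NCD values, and the gene fell by 1.39 (adjusted p = 0.00342) or by 1.31 without replicate 1. Clec9a, a receptor for dead cells, had 2.22, 2.00 and 2.75 FPKM on HFD and 8.07, 5.54 and 6.28 FPKM on NCD, and Flt3, the growth factor receptor of dendritic cells, 2.46, 2.12 and 2.67 FPKM on HFD and 6.16, 4.93 and 7.38 FPKM on NCD. Both fell, by 1.19 for Clec9a and by 1.06 for Flt3. Btla, an inhibitory receptor, fell by 1.5, and Dpp4, a surface peptidase found on these dendritic cells and on fibroblast progenitors, fell by 1.41. H2-Oa and H2-Ob encode the DO dimer, which restrains peptide loading of MHC class II in B cells and some dendritic cells. H2-Oa had 1.70, 2.77 and 2.64 FPKM on HFD against 8.12, 7.29 and 11 FPKM on NCD, and fell by 1.54, and H2-Ob fell by 1.23. They were the 2 members called among 13 MHC class II genes, whose median was -0.31 with all libraries and 0.05 without replicate 1. Cd209a, a lectin of monocyte-derived dendritic cells, had 61.8, 117 and 115 FPKM on HFD and 196, 208 and 247 FPKM on NCD, and fell by 1.19, or by 0.89 without replicate 1. Of the 9 tested dendritic cell markers, 5 fell with and without replicate 1, with medians of -1.06 and -0.89. Batf3, a transcription factor that these type 1 cells need, overlapped between diets, with 34.7, 49.6 and 50.4 FPKM on HFD and 53.3, 50.1 and 55.8 FPKM on NCD (log2 fold change -0.25, adjusted p = 0.448). The summed level of the 10 listed markers was 116 to 202 FPKM on HFD and 309 to 367 FPKM on NCD.

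Il5, the growth and survival factor of eosinophils, had 0.116, 0.169 and 0.250 FPKM in the miR-146a-/- HFD libraries and 2.59, 1.90 and 3.58 FPKM in the miR-146a-/- NCD libraries, which is 2, 3 and 4 reads against 41, 32 and 61. It fell by 1.62 on the log2(FPKM + 1) scale (adjusted p = 0.00342), a scale that holds such low levels back. Csf2, which encodes GM-CSF, had 1.11, 1.62 and 4.81 FPKM on HFD and 13.6, 14.9 and 17.4 FPKM on NCD. No values overlapped, and its log2 fold change was -2.35 (adjusted p = 0.0389), or -2.06 (adjusted p = 0.0733) without replicate 1. Both cytokines are made by type 2 innate lymphoid cells, mast cells and others. Klri1, a receptor of natural killer (NK) cells, had 3.09, 6.09 and 6.77 FPKM on HFD and 16.4, 15 and 19.9 FPKM on NCD, and fell by 1.57. All 10 tested NK and innate lymphoid markers had non-overlapping levels, lower on HFD (median -1.37), a lack of overlap seen in 17.5% of all tested genes. None of the 10 passed in limma with all libraries, where voom called Klrk1 and quantile normalization called Ncr1. Without replicate 1, Ncr1 and Klrk1, both activating NK receptors, fell by 1.46 and 0.96 (list median -0.97). Among 5 eosinophil markers Ear2, an eosinophil-associated ribonuclease, was the single gene called, without replicate 1, with 235, 171 and 145 FPKM on HFD against 246, 208 and 260 FPKM on NCD. Ear2 is also on the list of alternative macrophage activation genes. With all libraries Siglecf, Ccr3 and Alox15 overlapped between diets, and Prg2 did not. The T cell list held no called gene, and its median was -0.60 with all libraries and -0.16 without replicate 1. The part of such cells in these results was not tested.

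Stromal genes were lower as well. Igfbp5, an insulin-like growth factor binding protein, had 0.416, 0.835 and 0.737 FPKM in the miR-146a-/- HFD libraries and 2.91, 2.79 and 2.81 FPKM in the miR-146a-/- NCD libraries. The NCD libraries were close to each other and far from those on HFD, and the gene fell by 1.22 (adjusted p = 0.00342). Igfbp6 fell by 1.45, and Mfap5, a microfibril protein of fibroblast progenitors, by 0.90. Sfrp4, a secreted Wnt antagonist, had 0.203, 0.542 and 0.493 FPKM on HFD and 4.64, 6.44 and 2.67 FPKM on NCD, a log2 fold change of -1.93, with an adjusted p of 0.058 without replicate 1. Cfd, the complement factor adipsin made by adipocytes, had 5.60, 3.37 and 6.57 FPKM on HFD and 52.9, 22.7 and 29.7 FPKM on NCD, and fell by 2.50 and, without replicate 1, by 2.56. The summed adipocyte markers were 141 to 169 FPKM on HFD and 181 to 333 FPKM on NCD. Most of each sum was Fabp4, which overlapped, with 138, 119 and 136 FPKM on HFD and 224, 132 and 138 FPKM on NCD. Of 11 tested adipocyte markers 10 were below 0, and Cfd was the 1 called. Lep, the leptin gene, was above 0, with 1.01, 2.06 and 3.67 FPKM on HFD and 1.39, 0.843 and 1.21 FPKM on NCD. Of 14 fibroblast markers 3 fell with all libraries, Igfbp6, Mfap5 and Dpp4, which is also on the dendritic cell list (median -0.60), and 4 fell without replicate 1 (median -0.41), while their sums overlapped at 507 to 894 FPKM on HFD and 802 to 1058 FPKM on NCD. None of 36 extracellular matrix genes was called in limma (medians -0.44 and -0.30), while Mmp13, a collagenase, passed as higher without replicate 1 under voom and under both other scalings.

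Genes of tissue-resident macrophages did not share the direction of the lipid-associated list. With all libraries, 28 of 30 were below 0, with a median of -0.31, and 2 fell, Colec12 and Cd209a, which is also on the dendritic cell list. Without replicate 1 the median was -0.09 with 18 below 0. In WT ATMs 28 of the 30 were above 0, with a median of 0.37 and 1 called higher. The difference between both diet responses was below 0 for 29 of the 30 (median -0.65, or -0.45 without replicate 1). With all libraries 16 had an unadjusted p under 0.05, and none passed in limma across all genes (smallest adjusted p = 0.175, and 0.0924 without replicate 1). Colec12, a scavenger receptor, had 27.1, 22.3 and 21.5 FPKM in the miR-146a-/- HFD libraries and 37.8, 51.5 and 39.9 FPKM in the miR-146a-/- NCD libraries. The diets did not overlap, and Colec12 fell by 0.84 (adjusted p = 0.0323) or by 0.93 (adjusted p = 0.0152) without replicate 1. Timd4, the phosphatidylserine receptor of long-lived macrophages, had 40.5, 49.5 and 40.6 FPKM on HFD and 66.4, 81.1 and 69.6 FPKM on NCD, with a log2 fold change of -0.72 that did not pass (adjusted p = 0.0668). Limma voom called Timd4 lower with all libraries (-0.73, adjusted p = 0.0393) but not without replicate 1. It also called Fcna lower in both fits and Retnla lower without replicate 1. With all libraries, median-ratio scaling called only Cd209a of this list, and quantile normalization only Colec12. C2, a complement component, had 1.34, 1.92 and 2.21 FPKM on HFD and 5.74, 4.19 and 6.02 FPKM on NCD, and fell by 1.16.

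Interferon-stimulated genes lay below 0 as a group. None was called in limma in either fit, and voom called Mx1 and Ly6e lower without replicate 1. All 34 tested members had a log2 fold change below 0 in miR-146a-/- ATMs, with a median of -0.23, while 33 of the 34 were above 0 in WT ATMs, with a median of 0.40 and 4 called higher there. Under median-ratio scaling or quantile normalization, 33 of 34 were below 0. Without replicate 1 the median was -0.16 and 29 were below 0, or 25 under either scaling. The difference between both diet responses was below 0 for 33 of 34 members (median -0.74, or -0.58 without replicate 1). Of these, 28 had an unadjusted p under 0.05, and none passed across all genes (smallest adjusted p = 0.159, and 0.0736 without replicate 1). Ifit1, which binds foreign RNA, had 3.69, 7.56 and 5.33 FPKM in the miR-146a-/- HFD libraries and 8.58, 10.2 and 10.5 FPKM in the miR-146a-/- NCD libraries, against 13.9, 9.91 and 9.75 FPKM in WT HFD libraries and 5.20, 6.69 and 5.16 FPKM in WT NCD libraries. The diets did not overlap in either genotype and lay in opposite order. The interferon-gamma GTPases, which attack the vacuoles of microbes, were below 0 for all 20 tested members (median -0.46, or -0.27 without replicate 1, and 18 of 20 there under either scaling), and their WT median was 0.02. None was called.

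The promoters of Ifit1 and of Irgm2, a GTPase of that family, are shown because members of these lists lay on the same side together. They run from 250 bases before to 50 after the RefSeq start on the plus strand of GRCm38.p6, at chr19:34640639-34640938 for Ifit1 and chr11:58214727-58215026 for Irgm2. Capitals mark the core of interferon-stimulated response elements, GAAA followed by any 2 bases and a second GAAA, searched on both strands, so that it reads TTTC, any 2 bases and TTTC where it lies on the other strand. Ifit1 holds it at 104 to 95 and at 85 to 76 bases before its start, and Irgm2 at 64 to 55 bases before its start. Of the interferon-stimulated members with a promoter in the table, 12 of 22 held the word, and 10 of 14 GTPases did, against 3.99% of all 27025 genes with a promoter (3.44% of 32851 promoters) and 0 of 7 mast cell genes. A match says nothing of whether a factor was bound in these cells.
Ifit1: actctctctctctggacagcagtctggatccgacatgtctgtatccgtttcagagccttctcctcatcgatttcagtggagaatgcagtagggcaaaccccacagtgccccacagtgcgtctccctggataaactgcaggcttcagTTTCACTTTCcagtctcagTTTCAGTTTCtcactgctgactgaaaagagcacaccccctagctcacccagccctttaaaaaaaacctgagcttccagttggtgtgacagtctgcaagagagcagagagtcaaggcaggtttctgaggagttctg
Irgm2: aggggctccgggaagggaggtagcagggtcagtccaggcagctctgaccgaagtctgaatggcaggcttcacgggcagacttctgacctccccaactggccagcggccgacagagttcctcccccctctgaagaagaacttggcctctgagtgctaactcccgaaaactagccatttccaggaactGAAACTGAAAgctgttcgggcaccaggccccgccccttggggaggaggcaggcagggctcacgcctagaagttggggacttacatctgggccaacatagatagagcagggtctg

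**Figure D4:**
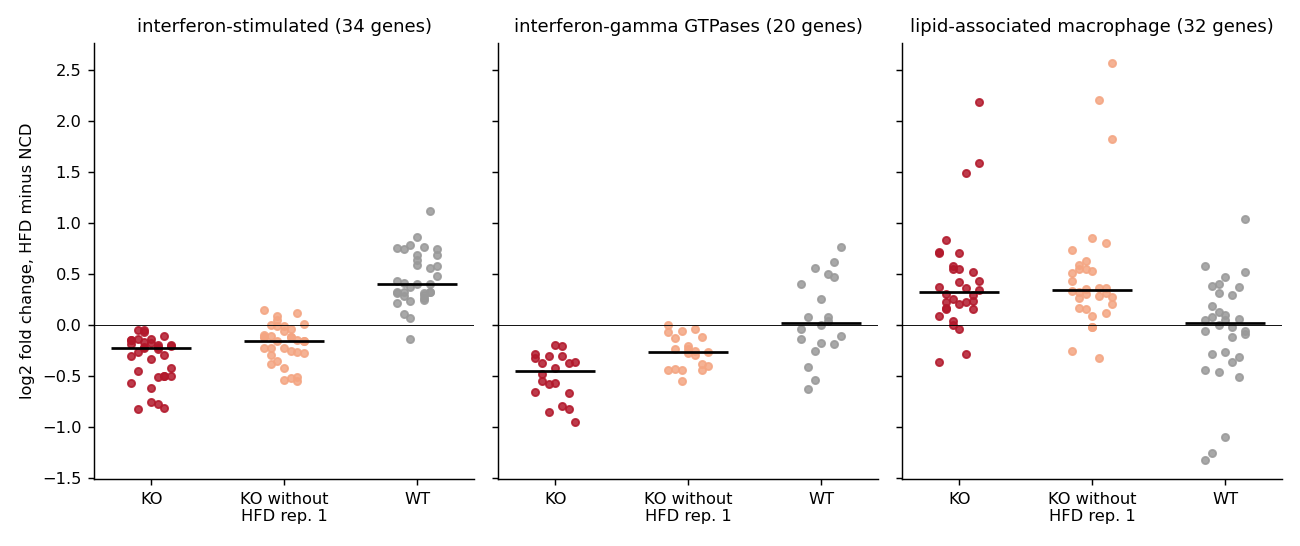
Log2 fold change, HFD minus NCD, of each tested member of 3 gene lists in miR-146a-/- ATMs (KO), in miR-146a-/- ATMs without HFD replicate 1 and in WT ATMs, with bars at the medians. The 34 interferon-stimulated genes all lie below 0 in miR-146a-/- ATMs (median -0.23) and 33 lie above 0 in WT ATMs (median 0.40), while the lipid-associated macrophage medians are 0.32, 0.34 and 0.02.

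Histone genes were examined as a list added after their values were seen. Of 49 tested, 47 were below 0 with a median of -0.54 and none was called. Without replicate 1, 48 were below 0, the median was -0.77 and 15 fell. Hist2h4, a histone H4 gene, had 12.5, 4.68 and 4.43 FPKM in the miR-146a-/- HFD libraries and 13.2, 11.7 and 11.6 FPKM in the miR-146a-/- NCD libraries. HFD replicate 1 sat within the NCD range and the other HFD replicates far below it, with a log2 fold change of -1.24 (adjusted p = 0.00352) without replicate 1 and of -0.82 (adjusted p = 0.25) with it. Histone genes are near-identical copies, so single members are uncertain. In WT ATMs the list median was -0.50 with none called. Other genes of the cell cycle leaned the same way, with 34 of 40 below 0 (median -0.26) and none called in limma in either fit, while voom called Ccnd2, a D-type cyclin, lower without replicate 1. Of 76 ribosomal protein genes 60 were below 0 with all libraries (median -0.10), or 46 under median-ratio scaling, and Rpl3 and Rpl41 passed as lower without replicate 1.

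Hspa1a, an inducible HSP70 chaperone, had 10.4, 14.1 and 18.0 FPKM in the miR-146a-/- HFD libraries and 69.8, 77.1 and 97.1 FPKM in the miR-146a-/- NCD libraries. The groups were far apart, with a log2 fold change of -2.45 (adjusted p = 0.0343), or -2.26 (adjusted p = 0.0733) without replicate 1. Hspa1b, its near-identical copy, gave -2.93 (adjusted p = 0.060), and reads of both genes are hard to separate. The other 21 heat shock genes held no call in limma, with a list median of -0.15, while voom also called Dnaja1, an HSP40 co-chaperone, lower. All 22 tested genes of cholesterol synthesis were below 0 with all libraries (median -0.31), 21 of them without replicate 1 (median -0.21), and 18 to 22 under the other scalings and voom with all libraries.

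Inflammatory genes did not move as a block. Of 24 chemokines 12 were above 0 (median -0.01), and Cxcl2 was the single gene called. Without replicate 1, 17 were above 0 (median 0.20), and Ccl2, which draws monocytes, rose with it. Ccl2 had 285, 646 and 761 FPKM in the miR-146a-/- HFD libraries and 397, 513 and 476 FPKM in the miR-146a-/- NCD libraries. Replicate 1 was below all NCD libraries and the others above them, giving 0.18 (adjusted p = 0.841) with it and 0.61 (adjusted p = 0.0422) without it. Among 19 cytokines 2 fell with all libraries, Csf2 and Lif, an interleukin 6 family cytokine (log2 fold change -1.03). Il6 itself had 22.6, 31.0 and 42.3 FPKM on HFD and 74.5, 62.5 and 54.1 FPKM on NCD, which did not overlap and gave a log2 fold change of -1.01 that did not pass (adjusted p = 0.0795). Il10, the anti-inflammatory cytokine, had 61.1, 86.3 and 102 FPKM on HFD and 53.3, 58.5 and 44.7 FPKM on NCD, and rose by 0.84 (adjusted p = 0.00821) without replicate 1, against 0.64 (adjusted p = 0.119) with it. The 27 NF-κB feedback and target genes had a median of -0.06 and no call. Without replicate 1 Nfkbiz, which encodes an inducible NF-κB cofactor, rose by 0.56, while in WT ATMs 24 of the 27 were below 0 (median -0.43) and 5 fell. The difference in diet response for the list was above 0 in 23 of 27, with no member past the test (smallest adjusted p = 0.212).

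Of 18 tested genes reported as miR-146a targets, 10 were above 0 and 8 below (median 0.01), and none was called in limma in either fit. Srsf6, a splicing factor, passed as higher without replicate 1 under voom and under both other scalings. Traf6 had 7.51, 8.94 and 8.75 FPKM in the miR-146a-/- HFD libraries and 7.16, 7.69 and 7.41 FPKM in the miR-146a-/- NCD libraries. The diets overlapped, with a log2 fold change of 0.16 ± 0.09 (SE, adjusted p = 0.472). Irak1 gave 0.18 (adjusted p = 0.384). These values compare diets within the deletion and do not measure the effect of the deletion.

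Among the metabolic lists, PI3K, AKT and mTOR genes and oxidative phosphorylation genes lay near the median of all genes (-0.03, or -0.04 without replicate 1). The 30 genes of the PI3K, AKT and mTOR pathway had a median of 0.05 with 17 above 0, and 0.01 with 15 above 0 without replicate 1. The 52 genes of oxidative phosphorylation had a median of 0.01 with 32 above 0, and -0.04 with 17 above 0 without replicate 1. None of either list was called in limma, in either fit. For 21 glycolysis genes the median was 0.04 with all libraries and -0.16 without replicate 1, where 3 were above 0 and 1 fell. Of 23 Nrf2 targets, which carry the antioxidant response, 20 were above 0 with all libraries (median 0.22) and 14 without replicate 1 (median 0.09), with none called in limma and Osgin1, an oxidative stress response gene, called higher with all libraries under quantile normalization.

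**Figure D5:**
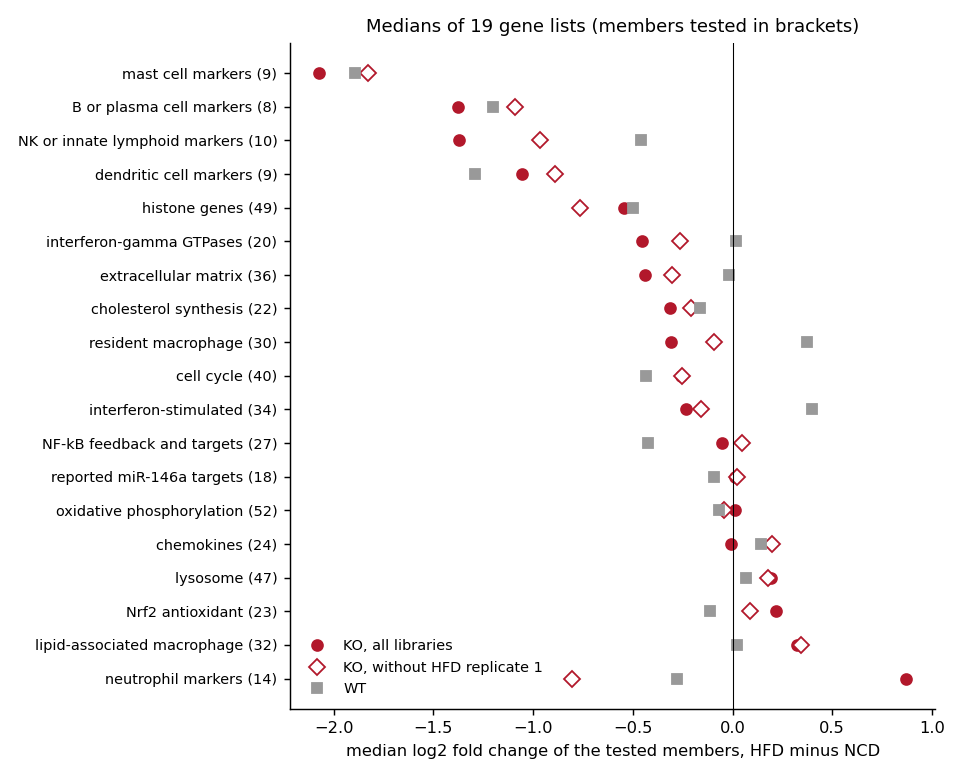
Median log2 fold change, HFD minus NCD, of the tested members of 19 gene lists in miR-146a-/- (KO) ATMs with all libraries (filled circles) and without HFD replicate 1 (open diamonds), and in WT ATMs (squares). The mast cell (-2.07 and -1.83) and dendritic cell (-1.06 and -0.89) medians stay low in both, while the neutrophil median lies at 0.87 with all libraries and at -0.81 without replicate 1.

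The genes that moved most between both fits were those high in HFD replicate 1. Of the 50 genes whose log2 fold change moved most, 47 were highest in that library and lower without it, none was called with all libraries and 3 were called without it. S100a8, a neutrophil calcium-binding protein, had 7389, 214 and 197 FPKM in the miR-146a-/- HFD libraries and 607, 212 and 310 FPKM in the miR-146a-/- NCD libraries. With all libraries it gave 0.99 ± 1.14 (SE, adjusted p = 0.761), and without replicate 1 it gave -0.73 (adjusted p = 0.452). Ly6g, the surface protein used to identify neutrophils, had 55.5, 1.29 and 0.573 FPKM on HFD and 5.20, 2.99 and 3.49 FPKM on NCD. Without replicate 1 it fell by 1.34 (adjusted p = 0.0163), a direction opposite to the 0.29 with all libraries. Slc16a3, a lactate exporter, did likewise, with 54.3, 7.52 and 6.80 FPKM on HFD and 16.4, 11 and 13.3 FPKM on NCD, at 0.10 and, without replicate 1, -0.82. Thbs1, thrombospondin 1, had 175, 30.3 and 29.6 FPKM on HFD and 72.5, 57.6 and 79.5 FPKM on NCD, and fell by 1.18 (adjusted p = 0.00352) without replicate 1, against -0.35 (adjusted p = 0.833) with it. Arg2, the mitochondrial arginase, fell by 1.32 in that fit. As neutrophil markers summed to 755 to 1855 FPKM on NCD against 678 and 633 FPKM in HFD replicates 2 and 3, both neutrophil signal and these genes were lower in the remaining HFD libraries, and the part of neutrophils in these calls was not tested.

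In WT ATMs the same diets gave 361 genes (2.98%), 100 higher (0.825%) and 261 lower (2.15%), and 1185 (9.78%), 469 higher (3.87%) and 716 lower (5.91%), when miR-146a-/- HFD replicate 1 was left out of the shared estimate of spread. Of the 80 genes lower in miR-146a-/- ATMs, 73 were below 0 in WT ATMs too and 45 were called lower there, with medians of -1.18 in miR-146a-/- and -1.09 in WT ATMs. Of the 12 genes higher in miR-146a-/- ATMs, 8 were above 0 in WT ATMs and 2, Aspa and C5ar1, were called there, with medians of 0.70 and 0.13. Of the 148 genes lower without replicate 1, 136 were below 0 in WT ATMs and 47 were called lower there with all libraries. Of the 50 higher genes of that fit, 44 were above 0 in WT ATMs and 8 were called higher there, again with all libraries. The 47 and the 8 thus set calls made without replicate 1 beside the 361 WT calls, not the 1185. They understate the calls that both genotypes share. Cma1 and Xcr1 were among the genes called lower in both genotypes, with values for Cma1 of -3.17 in miR-146a-/- and -2.72 in WT ATMs, and for Xcr1 of -1.39 and -1.42. Cd209a fell in miR-146a-/- ATMs (-1.19) and was not called in WT ATMs (-0.40, adjusted p = 0.335), and their difference did not pass (adjusted p = 0.338). Genes with unlike values included Ccrn4l (0.78 and -0.25), Igfbp5 (-1.22 and -0.11) and C2 (-1.16 and 0.41), but the difference passed for none of them (adjusted p = 0.159 each). No gene passed the limma test of the difference in diet response with all libraries (0%) or without replicate 1 (0%), with 1481 and 1658 genes at an unadjusted p under 0.05, and limma voom called none. The count was 7 without miR-146a-/- HFD replicate 2, and 1 without miR-146a-/- NCD replicate 2 or WT HFD replicate 1.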

How the data were processed

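RNA from sorted CD45+ CD11b+ F4/80+ cells was made into stranded libraries after ribosomal depletion. Per the labels, reads were aligned to mm10 with Novoalign, and DESeq2 was used for the study's own comparisons. Aligner settings, counting and strand setting are not given in the sources used here. The authors deposited 1 table of FPKM values for 15393 genes in 12 libraries, with gene lengths and library totals. FPKM times length times library total gave whole reads for all 184716 values (tolerance 1e-06), so FPKM here rest on whole-read counts of 9998868 to 11559282 reads per library.

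Groups came from the sample labels. log2(FPKM + 1) of the 12119 genes averaging 1 FPKM or more was fitted with limma 3.58.1 in R 4.3.3 (trended, robust variance; 4 group means over 12 libraries; Benjamini-Hochberg adjustment; threshold 0.05), again without miR-146a-/- HFD replicate 1, and for the difference between the diet responses of both genotypes. The procedure was tested on simulated data. The members and lists were chosen with earlier results of these data known. Alternatives were the pseudocount (0.1), low-value filters (none, 5 FPKM), median-ratio and quantile scaling, limma voom on recovered reads, array quality weights, only the groups compared, a replicate block and leaving out each library. The list of histone genes was added after seeing the data.

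Genes named by rule were up to 15 called genes in each direction with the largest log2 fold change (up to 12 without replicate 1), up to 4 list members with the smallest p in each fit, up to 3 markers per cell type with the highest level, every neutrophil marker and the 12 genes that moved most between both fits. Unnamed gene models were left out. Adgre1, A530099J19Rik, Arg2, Btla, Clec9a, Dpp4, Flt3, Gcsam, Hdc, Hist2h4, Hpgds, Igfbp5, Igfbp6, Kit, Klrk1, Mfap5, Ncr1, Skint3, Thbs1, Trem2 and Xcr1 were chosen after their values were seen. Sequences came from RefSeq tables of GRCm38.p6 (mm10), in which 7 of 9 tested mast cell genes, 22 interferon-stimulated genes and 14 of 20 GTPases had a promoter.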

Additional observations from a re-analysis of the deposited data

Results flagged for a closer look

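In 7 of 243 tested genes covered by the naming rule (2.88%), against 173 of all 12119 tested genes (1.43%), every miR-146a-/- HFD library lay on one side of every miR-146a-/- NCD library and every WT HFD library on the other side of every WT NCD library. The naming rule itself favoured genes whose miR-146a-/- diets did not overlap, so a higher share among them is built in and is no result. The difference in diet response, miR-146a-/- minus WT on the log2 scale, was -1.62 for Ifit1, -1.04 for Mx1, -0.73 for Ly6e, -0.68 for Irgm2, -0.54 for Myc, 0.55 for Hmox1 and 0.74 for Nceh1. In the limma test across all genes none of these differences passed (adjusted p 0.17 to 0.262).

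Mx1, an interferon-induced antiviral GTPase, had 5.28, 9.94 and 9.21 FPKM in miR-146a-/- HFD and 12, 14.4 and 16.6 FPKM in miR-146a-/- NCD libraries, against 17.0, 15.2 and 13.8 FPKM in WT HFD and 12.9, 13.4 and 11.6 FPKM in WT NCD libraries. Ly6e, another interferon-induced gene, had 130 to 175 FPKM in miR-146a-/- HFD and 179 to 216 FPKM in miR-146a-/- NCD libraries, against 161 to 196 FPKM in WT HFD and 124 to 135 FPKM in WT NCD libraries. Irgm2 had 7.66 to 11 and 11.4 to 15.4 FPKM on HFD and NCD without miR-146a, and 12.5 to 13.9 and 10.1 to 11.5 FPKM on HFD and NCD in WT ATMs. Hmox1, the haem-degrading enzyme, went the other way, with 155 to 203 FPKM in miR-146a-/- HFD and 136 to 151 FPKM in miR-146a-/- NCD libraries, against 121 to 139 FPKM in WT HFD and 139 to 173 FPKM in WT NCD libraries. Myc had 5.42 to 6.27 FPKM in miR-146a-/- HFD and 6.50 to 6.65 FPKM in miR-146a-/- NCD libraries, against 7.55 to 8.72 FPKM in WT HFD and 5.59 to 6.42 FPKM in WT NCD libraries. Nceh1 had 15.9 to 18.4 FPKM in WT HFD and 18.9 to 20.7 FPKM in WT NCD libraries, beside the higher HFD values without miR-146a given above.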

How the results depend on the processing

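Leaving out 1 library at a time, the count of genes changed by diet in miR-146a-/- ATMs was 17 to 198 around 92, that without HFD replicate 1 was 36 to 258 around 198, and that of the difference between genotypes was 0 to 7 around 0. The 92 became 52 with a mean of at least 5 FPKM, 2 in a fit of only the groups compared and 706 with array quality weights, which held all 92. The 198 became 49 in a fit of only the groups compared and 128 without the trended, robust variance. Array quality weights called 42 genes for the difference between genotypes. The other alternatives kept both counts within 1.5 times, at 69 to 110 and 142 to 291. Of 872 tested members of the lists, 28 passed with all libraries and 42 without HFD replicate 1, or 57 of 921 there with the added histone list. Over all 12119 tested genes the shares were 0.759% and 1.63%. The lists were chosen with earlier results of these data known, so a higher share among their members is no result. Ly6g (-1.34), Slc16a3 (-0.82) and Hdc (-1.30) turned direction without HFD replicate 1, and over all left-out libraries ran between -1.34 and 1.24 for Ly6g, between -0.82 and 0.59 for Slc16a3 and between -1.30 and 0.75 for Hdc. The cause was not tested for any of these.

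The labels do not say whether replicate numbers pair the libraries, and the main fits took them as unpaired. Correlations of same-numbered deviations were 0.123, 0.101 and 0.032, and 5 of 6 miR-146a-/- libraries matched their own number best. These values do not settle whether the libraries are paired. A replicate block gave 87 genes with all libraries and 156 without HFD replicate 1. With 3 pooled libraries per group and totals of 9998868 to 11559282 reads, the size of a change is least precise for genes of a few reads, such as Il5 on HFD.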
